A study of Mus musculus with 14 samples.

Results

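Thalamic neuron genes were followed here through 9 genes, Tcf7l2, Gbx2, Lef1, Slc17a6, Prkcd, Ramp3, Rgs16, Synpo2 and Plekhg1, as a measure of thalamic tissue in each library. They were chosen by symbol, with earlier results of these data known. All 9 were found among the Ensembl identifiers of a read count table of 48440 rows. All 9 passed the filter on low counts that left 24680 genes for testing. Gbx2 passed only through the libraries in which it was high, so its fitted fold changes are not used. Total RNA of C57BL/6 mice was sequenced in bulk. The KO mice have the genotype CARIP-/- and the WT mice are wild type, per the labels. Cerebral cortex was represented by KO libraries 1 and 2 and WT libraries 2 and 3. Hippocampus had the same numbers in each genotype. Cerebellum had KO libraries 1, 2 and 3 and WT libraries 1, 2 and 3. The titles of the cortical libraries read Cerebrum, and the labels give no bounds of the dissection. The labels give neither the ages of the mice nor how the allele was made, and do not say whether libraries of different regions came from the same mouse. Where libraries of a group did not come from separate mice, the p-values measure only technical spread.

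The thalamus relays sensory and motor signals to the cortex. Its relay neurons are excitatory and load their vesicles with glutamate through the transporter VGLUT2, the product of Slc17a6, whereas most excitatory neurons of cortex and hippocampus rely on VGLUT1. Tcf7l2 and Lef1 encode transcription factors of the TCF/LEF family, which bind DNA through an HMG box and join beta-catenin in the Wnt pathway. Tcf7l2 is kept on in postmitotic neurons of thalamus and habenula, and Gbx2 is a homeobox gene of the developing thalamus. Of the other members, Prkcd encodes protein kinase C delta, Ramp3 a receptor activity modifying protein that partners with the calcitonin receptor-like receptor, and Rgs16 a regulator that speeds the shut-off of G proteins. Synpo2 encodes an actin-binding synaptopodin, and Plekhg1 a guanine nucleotide exchange factor. In bulk tissue, more cells of a type and more RNA per cell cannot be told apart.

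On GRCm38, Tcf7l2 (ENSMUSG00000024985.18) lies at chr19:55741820-55933654 on the plus strand and Prkcd (ENSMUSG00000021948.15) at chr14:30595354-30626210 on the minus strand. Slc17a6 (ENSMUSG00000030500.6) lies at chr7:51622006-51671119 on the plus strand, Plekhg1 (ENSMUSG00000040624.17) at chr10:3740364-3967303 on the plus strand and Synpo2 (ENSMUSG00000050315.13) at chr3:123076519-123236149 on the minus strand. No exon of these 5 genes overlaps one of another gene in GENCODE M21. Lef1 (ENSMUSG00000027985.14, chr3:131110471-131224356, plus) shares 1208 exonic bases with a gene on the opposite strand. Ramp3 (ENSMUSG00000041046.7, chr11:6658521-6677475, plus) shares 101 such bases and Rgs16 (ENSMUSG00000026475.7, chr1:153740349-153745468, plus) shares 236. Gbx2 (ENSMUSG00000034486.8, chr1:89927956-89931179, minus) shares 946 of its 2177 exonic bases with D130058E05Rik on the opposite strand. Whether the counting used strand is not given in the sources used here, so reads of these 4 genes and of their antisense partners cannot be told apart.

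All 9 members had a promoter window in RefSeq (GRCm38.p6, 250 bases before to 50 after a start site), with 15 windows in all. The outermost windows are shown of the 4 members with the largest ratios in KO cortex 2 after Gbx2, which had few reads. Capitals mark the TCF/LEF core CTTTGA on either strand or the homeodomain core TAATTA. The windows lie at chr19:55741560-55741859 (Tcf7l2, plus), chr14:30626159-30626458 (Prkcd, minus), chr3:123236100-123236399 (Synpo2, minus) and chr7:51621580-51621879 (Slc17a6, plus), and each is written along the strand of its gene.
Tcf7l2: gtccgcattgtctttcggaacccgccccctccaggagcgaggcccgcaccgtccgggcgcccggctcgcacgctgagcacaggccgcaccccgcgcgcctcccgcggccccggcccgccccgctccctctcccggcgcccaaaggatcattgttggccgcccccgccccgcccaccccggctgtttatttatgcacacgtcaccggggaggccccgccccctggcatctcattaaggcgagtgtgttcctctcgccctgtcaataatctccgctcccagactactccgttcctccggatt
Prkcd: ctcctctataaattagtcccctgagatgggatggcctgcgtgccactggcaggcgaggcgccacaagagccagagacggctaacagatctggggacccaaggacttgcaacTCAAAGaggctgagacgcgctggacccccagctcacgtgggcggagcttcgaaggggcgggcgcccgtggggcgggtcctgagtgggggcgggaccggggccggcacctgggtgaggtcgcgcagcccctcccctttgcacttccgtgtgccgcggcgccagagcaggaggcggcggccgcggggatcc
Synpo2: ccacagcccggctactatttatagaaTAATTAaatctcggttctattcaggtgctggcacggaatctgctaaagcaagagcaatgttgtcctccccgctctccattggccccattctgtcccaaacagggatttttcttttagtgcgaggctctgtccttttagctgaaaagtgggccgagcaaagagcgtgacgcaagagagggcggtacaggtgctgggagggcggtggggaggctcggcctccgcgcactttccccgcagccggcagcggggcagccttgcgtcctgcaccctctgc
Slc17a6: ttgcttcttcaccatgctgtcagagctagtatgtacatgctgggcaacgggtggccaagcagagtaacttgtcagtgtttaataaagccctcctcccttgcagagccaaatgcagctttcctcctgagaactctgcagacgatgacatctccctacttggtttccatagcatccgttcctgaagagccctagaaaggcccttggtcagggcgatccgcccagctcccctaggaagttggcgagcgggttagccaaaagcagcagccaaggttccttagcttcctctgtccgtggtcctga
The Prkcd window holds the reverse complement of the TCF/LEF core, at -139 from the start site, and the Synpo2 window a homeodomain core, at -224. The windows of Tcf7l2 and Slc17a6 hold neither core. Searched on both strands, CTTTGA occurs in 16% of 32851 promoters of the same length and TAATTA in 5.3%. The Tcf7l2 window has a GC content of 70% with 34 CpG dinucleotides, Prkcd 69.3% with 26, Synpo2 57.3% with 17 and Slc17a6 53.7% with 8, against medians of 52.7% and 7 over all promoters. A motif match is a description of the letters and says nothing of a factor being bound.

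Libraries held 20.1 to 38.8 M counted reads, and mitochondrial transcripts took 1.9% to 3.7% of them. The name CARIP was not matched to a gene of the annotation used here, so the level of the targeted gene was not analysed. In markers of subcortical tissue or brainstem, 3 libraries stood apart from their region. KO cortex 2, the deepest at 38.8 M reads, was high in markers of several subcortical regions. KO cerebellum 2 and WT cerebellum 2 were both high in markers of midbrain and hindbrain, a list chosen after values were seen. Results that rest on these 3 libraries are given with and without them. Other lists set other libraries apart. By the mean log2 deviation from the median library of the region, choroid plexus markers were at 2.27 in WT hippocampus 2 and -3.43 in WT cerebellum 1, and cerebellar neuron markers at -2.14 in WT hippocampus 3.

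All 9 thalamic neuron genes were highest in KO cortex 2 among the 4 cortical libraries, whereas KO cortex 1 lay near both WT libraries. In KO cortex 2, 7 of the 9 were at least 2-fold above every other cortical library. These were Tcf7l2, Prkcd, Synpo2, Plekhg1, Rgs16, Slc17a6 and Gbx2. Gbx2 is in both counts but passed the filter only through the libraries in which it was high, so it adds no support. Over all tested genes, 37% were highest in KO cortex 2 and 3.85% were at least 2-fold above every other cortical library. The members were chosen with earlier results of these data known, so these counts describe the library and are no independent test. In hippocampus no library stood apart in these genes. In cerebellum the 2 libraries numbered 2 were high in some members, above all Slc17a6 and Tcf7l2. The levels that follow are CPM, the reads of a gene per M reads of its library, on library totals scaled by TMM.

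**Figure D1:**
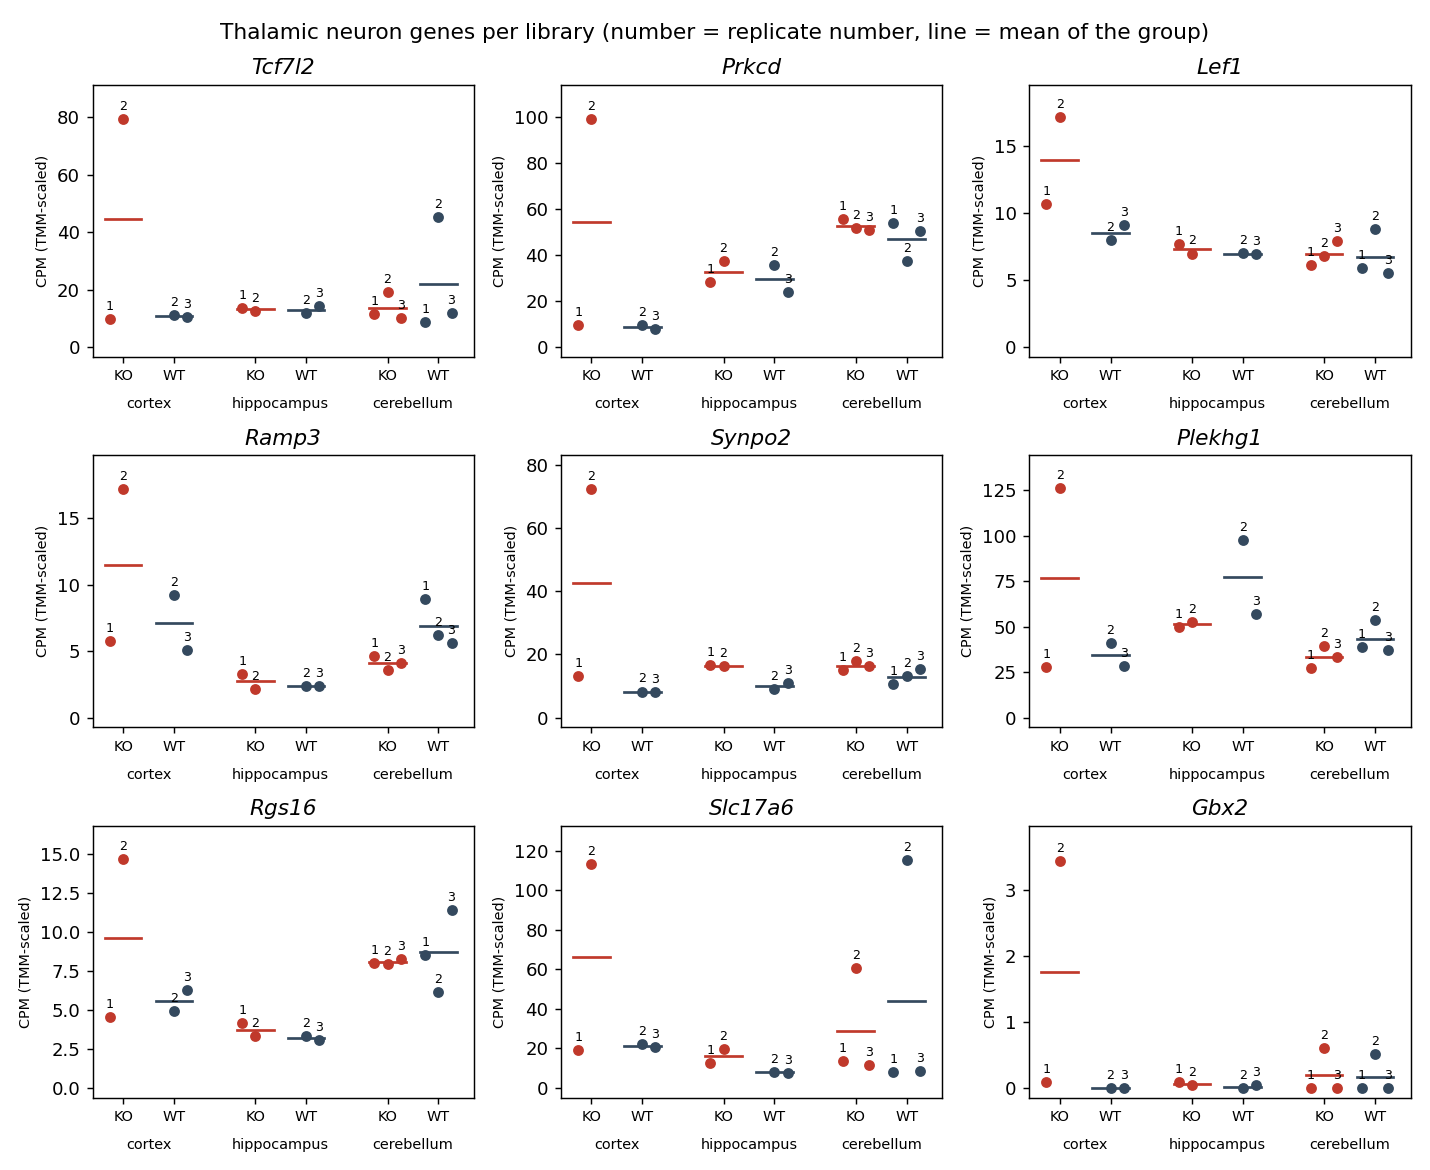
CPM of each thalamic neuron gene (y axis, linear, one panel per gene) in the 14 libraries, by region and genotype. Points are libraries labelled with their replicate number, red for KO and dark blue for WT, and lines are group means. KO cortex 2 is the top cortical point in every panel, and in cerebellum the points numbered 2 are the top pair for Tcf7l2 (19.2 in KO and 45.3 in WT) and Slc17a6 (60.7 in KO and 115 in WT).

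Among the transcription factors, Tcf7l2 had 9.80 and 79.4 CPM in KO cortex, against 11 and 10.3 CPM in WT cortex. Only KO cortex 2 was high, so the genotypes overlapped. Hippocampal Tcf7l2 was 13.7 and 12.5 CPM in KO and 11.8 and 14.3 CPM in WT. In cerebellum it was 11.6, 19.2 and 10.1 CPM in KO and 8.65, 45.3 and 11.7 CPM in WT, where library 2 of each genotype was the highest. The increase in KO cortex 2 was 7.65-fold over the mean of the other 3 cortical libraries, and that in WT cerebellum 2 was 4.32-fold over the mean of the 4 cerebellar libraries numbered 1 and 3.

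Gbx2 gave the sharpest contrast between libraries. It had 2 and 116 reads in KO cortex, against 0 and 0 reads in WT cortex, and 2 and 1 reads in KO hippocampus, against 0 and 1 reads in WT hippocampus. In cerebellum it had 0, 19 and 0 reads in KO and 0, 15 and 0 reads in WT. At 3.44 CPM, KO cortex 2 was at least 60.1-fold higher than WT cortex, with the floor taken as 3 reads over both WT libraries. WT cerebellum 2, at 0.512 CPM, was at least 15.8-fold higher than the 4 cerebellar libraries at 0, with 3 reads over all 4 as the floor. Apart from these and KO cerebellum 2, libraries had at most 2 reads. These bounds cover counting error only.

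Lef1 varied least in this group. It had 10.7 and 17.2 CPM in KO cortex, against 7.97 and 9.10 CPM in WT cortex, and did not overlap between genotypes. In hippocampus it was 7.67 and 6.98 CPM in KO and 7.04 and 6.92 CPM in WT, and in cerebellum 6.15, 6.78 and 7.89 CPM in KO and 5.87, 8.80 and 5.50 CPM in WT. Its level in KO cortex 2 was 1.86-fold the mean of the other cortical libraries, the smallest ratio of the 9.

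Slc17a6, the transporter of relay neurons, had 19.4 and 113 CPM in KO cortex, against 22.0 and 20.6 CPM in WT cortex. In cerebellum it had 13.5, 60.7 and 11.5 CPM in KO, against 7.94, 115 and 8.75 CPM in WT. Library 2 of each genotype was thus far above the rest, and WT cerebellum 2 reached the level of KO cortex 2. Hippocampal Slc17a6 was 12.8 and 19.9 CPM in KO, against 8.22 and 7.51 CPM in WT, with no overlap between genotypes. The gene is also used by excitatory neurons of habenula, hypothalamus, midbrain and hindbrain, and it alone does not mark thalamus. Slc17a7, the transporter VGLUT1 of cortical neurons, was 802 and 640 CPM in KO cortex and 874 and 862 CPM in WT cortex, and KO cortex 2 was its lowest cortical library.

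The kinase gene Prkcd had 9.59 and 99.0 CPM in KO cortex, against 9.69 and 8.03 CPM in WT cortex. In hippocampus it had 28.2 and 37.4 CPM in KO and 35.5 and 23.7 CPM in WT. Cerebellar Prkcd was 55.8, 51.8 and 50.7 CPM in KO and 53.7, 37.3 and 50.3 CPM in WT. In KO cortex 2 it was 10.9-fold the mean of the other 3 cortical libraries, the largest ratio after Gbx2. In cerebellum its level was lowest in WT cerebellum 2, the library with the most Slc17a6 and Tcf7l2. The 4 cerebellar libraries without a Gbx2 read still had 50.3 to 55.8 CPM of Prkcd, so its level there does not track the other members.

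Ramp3 had 5.77 and 17.2 CPM in KO cortex, against 9.20 and 5.10 CPM in WT cortex. It had 3.26 and 2.18 CPM in KO hippocampus, against 2.39 and 2.36 CPM in WT hippocampus. In cerebellum it had 4.64, 3.55 and 4.12 CPM in KO, against 8.91, 6.18 and 5.61 CPM in WT, and here every KO library was below every WT library. Rgs16 had 4.58 and 14.7 CPM in KO cortex, against 4.94 and 6.28 CPM in WT cortex. Its hippocampal levels were 4.15 and 3.31 CPM in KO and 3.35 and 3.07 CPM in WT, and its cerebellar levels 8.01, 7.94 and 8.29 CPM in KO and 8.52, 6.18 and 11.4 CPM in WT. Unlike Tcf7l2 and Slc17a6, Rgs16 was lower in both cerebellar libraries numbered 2 than in the other 4, in KO 2 only just.

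Synpo2, which binds actin, had 13.1 and 72.3 CPM in KO cortex, against 8.24 and 8.11 CPM in WT cortex. It had 16.6 and 16.2 CPM in KO hippocampus, against 9.06 and 11 CPM in WT hippocampus, and 15.2, 18.0 and 16.2 CPM in KO cerebellum, against 10.5, 13.1 and 15.3 CPM in WT cerebellum. KO libraries were above WT libraries in cortex and hippocampus without overlap, KO cortex 1 included, and the cerebellar groups overlapped by KO 1 and WT 3 alone. Plekhg1 had 27.7 and 126 CPM in KO cortex, against 40.9 and 28.2 CPM in WT cortex. It had 49.9 and 52.4 CPM in KO hippocampus, against 97.3 and 57.0 CPM in WT hippocampus, where KO was below WT without overlap. Cerebellar Plekhg1 was 27.1, 39.4 and 33.0 CPM in KO and 38.6, 53.8 and 37.0 CPM in WT, with library 2 the highest of each genotype.

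Scaled per kilobase of exon, so that genes can be compared with each other, the order of the members differed between regions. Values here are medians without KO cortex 2, KO cerebellum 2 and WT cerebellum 2. In hippocampus (4 libraries) Plekhg1 led at 6.25 CPM per kb, with Prkcd at 5.75, and their ranges of 5.71 to 11.1 and 4.28 to 6.75 overlapped. In cerebellum (4 libraries) Prkcd led at 9.41, above Plekhg1 at 4, Ramp3 at 3.72 and Rgs16 at 3.59, whose ranges overlapped. In cortex (3 libraries) Ramp3 at 4.18, Slc17a6 at 3.81 and Plekhg1 at 3.23 led with overlapping ranges, and Prkcd was at 1.73. Gbx2 was last in each region, at 0 in cortex and cerebellum and 0.0191 CPM per kb in hippocampus. In KO cortex 2 itself, Slc17a6 reached 20.9 CPM per kb, Prkcd 17.9, Plekhg1 14.5, Ramp3 12.5 and Tcf7l2 9.05.

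As a single measure, the summed CPM of the 9 genes was 101 and 542 in KO cortex, against 114 and 95.7 in WT cortex. It was 136 and 151 in KO hippocampus, against 175 and 126 in WT hippocampus, and 142, 208 and 142 in KO cerebellum, against 143, 286 and 145 in WT cerebellum. KO cortex 2 had 5.24 times the mean of the other 3 cortical libraries, and WT cerebellum 2 had 2.00 times the mean of the 4 cerebellar libraries numbered 1 and 3. Leaving Slc17a6 out lowered the second ratio to 1.29, while the first lay between 4.70 and 5.84 with any one gene left out. A sum is led by its most abundant genes, so the mean log2 deviation of the 9 genes from the median library of the region was taken as well. It was 2.41 in KO cortex 2, 0.66 in KO cerebellum 2 and 0.91 in WT cerebellum 2, and -0.22 to 0.20 in the other 11 libraries. Gbx2 is in this mean, with a log2 CPM of 1.82 in KO cortex 2, -0.53 in KO cerebellum 2 and -0.76 in WT cerebellum 2. Libraries without a Gbx2 read sit at the floor of -3.67, so part of each high value rests on that gene.

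**Figure D2:**
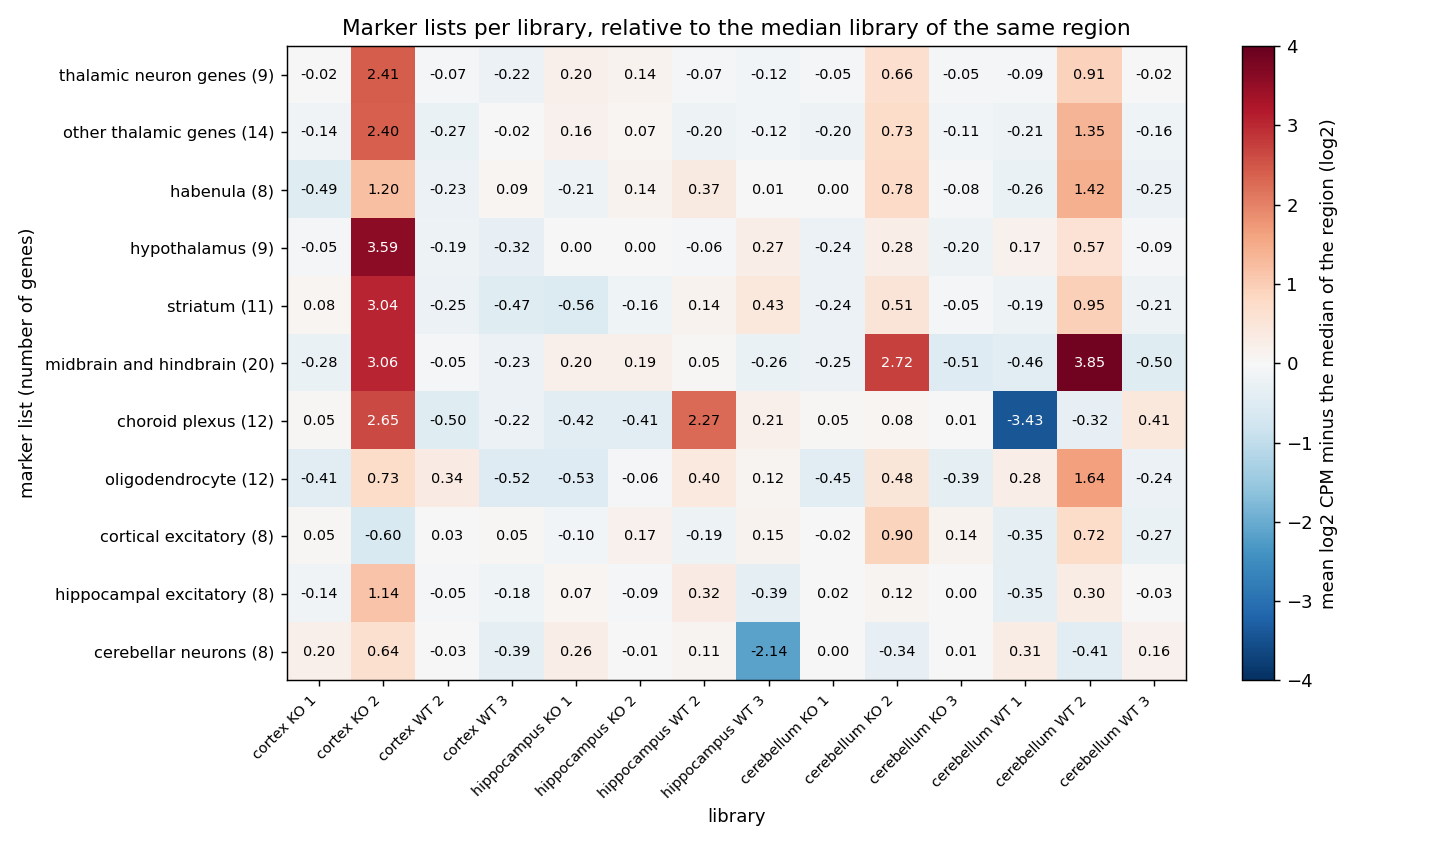
Mean log2 CPM of marker lists (rows, with the number of genes) in each library (columns), minus the median library of the same region, on a colour scale in log2 units with red above and blue below the median. In KO cortex 2 the thalamic neuron genes (2.41) stand beside hypothalamus (3.59), midbrain and hindbrain (3.06) and striatum (3.04), and cortical excitatory markers are at -0.60. In KO and WT cerebellum 2 they are, with Gbx2 included, at 0.66 and 0.91, beside 2.72 and 3.85 for midbrain and hindbrain. The midbrain and hindbrain list was chosen after values were seen, so its height is no independent result.

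Markers of other tissue moved with these genes in KO cortex 2. Of 14 further genes enriched in thalamic nuclei, 13 were above the mean of the other 3 cortical libraries. The median of the 14 was 4.31-fold, against 5.46-fold for the 9 members, Gbx2 included, and 0.974-fold for all tested genes. Both lists were chosen with earlier results of these data known. Shox2, a homeobox gene, was at 22.2 CPM in KO cortex 2 and at most 0.19 CPM in the other cortical libraries. Hypothalamic peptide and factor genes had a median of 33.4-fold over the 8 of 9 with a read in the other cortical libraries (47.1-fold with the remaining gene placed highest) and none at 0 reads in KO cortex 2, and their summed level was 4.71 and 46.5 CPM in KO cortex and 3.87 and 3.43 CPM in WT cortex. Pmch, which encodes melanin-concentrating hormone, was at 12.2 CPM there and at most 0.153 CPM in the other cortical libraries. Striatal markers were above the others in 11 of 11 (median 7.2-fold, summed 366 and 1300 CPM in KO and 327 and 250 CPM in WT). Choroid plexus markers summed to 289 and 1150 CPM in KO and 279 and 243 CPM in WT.

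Cortical excitatory markers were below the mean of the other cortical libraries in 8 of 8 in KO cortex 2 (median 0.638-fold), with sums of 1160 and 732 CPM in KO and 1140 and 1130 CPM in WT. Oligodendrocyte markers summed to 2350 and 6070 CPM in KO cortex and 3910 and 1910 CPM in WT cortex. Habenular markers were above in 5 of 8 (median 1.88-fold). Thalamic genes were therefore one of several groups of subcortical genes that were high in the library. The part of this tissue in the differences between genotypes was not tested beyond leaving the library out.

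In cerebellum the pattern was another. Tcf7l2, Plekhg1 and Slc17a6 were above the other 4 libraries in both libraries numbered 2, as were 18.7% of tested genes. Gbx2 was above them too, but it passed the filter only through libraries in which it was high. Rgs16 was below them in both, as were 18.1%. Of the 9 members, Tcf7l2 alone was at least 2-fold above every other cerebellar library in WT cerebellum 2, as were 2.06% of tested genes. Over the 8 members other than Gbx2, which had no read in the other 4 libraries, the median ratio to their mean was 1.12 in KO cerebellum 2 and 1.23 in WT cerebellum 2, against 0.992 and 0.97 for all tested genes. With Gbx2 placed highest, the medians were 1.16 and 1.39. Pou4f1, a homeobox gene of habenula and midbrain, was at 1.13 CPM in KO cerebellum 2 and 3.65 CPM in WT cerebellum 2, and at most 0.133 CPM in the other 4.

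A list of 20 midbrain and hindbrain genes, chosen after values were seen, moved more in the same libraries. It summed to 44.8, 200 and 39.3 CPM in KO cerebellum and 37.3, 272 and 44.4 CPM in WT cerebellum, with a median ratio of 4.97 in KO cerebellum 2 and 26.6 in WT cerebellum 2 over the 18 genes with a read in the other 4 libraries (8.38 and 38 with the remaining genes placed highest). None of the 20 was at 0 reads in either, against 5 to 9 in the other 4 cerebellar libraries. Hoxb5, a hindbrain homeobox gene, was at 4.42 CPM in KO cerebellum 2 and 4.20 CPM in WT cerebellum 2, against at most 0.132 CPM in the other 4. In KO cortex 2, by contrast, Hoxb5 was at 0.208 CPM. Oligodendrocyte markers summed to 2440, 4560 and 2410 CPM in KO and 3490, 9460 and 2670 CPM in WT, and cerebellar neuron markers to 3280, 2660 and 3290 CPM in KO and 4120, 2430 and 3520 CPM in WT. The part of these in the levels of the members was not tested. Shox2, Pmch, Pou4f1 and Hoxb5 were picked for mention after their values were seen.

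The study asked what the loss of CARIP changes in each region. In cortex all 8 members with a usable fold change were higher in KO (median log2 fold change 1.40, against 0.02 over all tested genes). By edgeR none of them was called, nor was any of the 24680 genes tested (0%), with 1825 at an unadjusted p under 0.05. Synpo2 had a log2 fold change of 2.39 ± 0.57 (SE) and an edgeR Benjamini-Hochberg adjusted p of 0.66. Prkcd had 2.62 ± 0.78, also with an edgeR adjusted p of 0.66. Tcf7l2 was at 2.07 ± 0.95, Slc17a6 at 1.64 ± 1.35 and Plekhg1 at 1.16 ± 0.56. Rgs16, Lef1 and Ramp3 lay between 0.69 and 0.79. DESeq2 called 50, among them Synpo2 (2.37 ± 0.50, DESeq2 adjusted p = 0.0059), and limma-voom called 0 with 2255 at an unadjusted p under 0.05.

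The cortical differences followed KO cortex 2. Without it, 3 of the 8 were above 0 and 5 below (median -0.15), and edgeR called 0 genes with 575 at an unadjusted p under 0.05. Tcf7l2 was then at -0.14 ± 0.88, Slc17a6 at -0.15 ± 1.67, Prkcd at 0.10 ± 0.27 and Plekhg1 at -0.34 ± 0.36. Synpo2 was still above 0, at 0.66 ± 0.23 (edgeR adjusted p = 1). The single KO library left is assumed to vary like the other groups. With KO cortex 1 left out instead, KO cortex 2, already known to be high in these genes, alone stood for KO cortex. That fit rests on 1 library and is no independent test, so only its values are given. All 8 were higher in KO. They were Synpo2 (3.11 ± 0.21), Prkcd (3.45 ± 0.26), Plekhg1 (1.84 ± 0.33) and Rgs16 (1.36 ± 0.30). The others were Ramp3 (1.23 ± 0.37), Lef1 (0.98 ± 0.28), Tcf7l2 (2.86 ± 0.83) and Slc17a6 (2.38 ± 1.57). Groups did not overlap for Lef1 and Synpo2, KO higher in both, which held for 14% of tested genes, of 27.3% without overlap in either direction.

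In hippocampus the members lay close to 0, with 7 of 8 positive and a median log2 fold change of 0.17, against 0 over all tested genes. The largest were Slc17a6 at 1.06 ± 1.38, Synpo2 at 0.71 ± 0.55 and Plekhg1 at -0.59 ± 0.55, each with an edgeR adjusted p of 1. Tcf7l2 was at 0.01 ± 0.93 and Prkcd at 0.15 ± 0.73. Groups did not overlap for Synpo2 and Slc17a6, higher in KO (18.1% of tested genes), and for Plekhg1, lower in KO (18.6%). Gbx2, with at most 2 reads, was not counted. WT hippocampus 2, the highest library for Plekhg1, also led in choroid plexus markers, which summed to 234 and 258 CPM in KO and 1830 and 348 CPM in WT. Plekhg1 was at -0.15 ± 0.66 without that library. Cerebellar neuron markers summed to 189 and 150 CPM in KO and 131 and 85.8 CPM in WT (8 of 8 positive, median log2 fold change 0.62), and oligodendrocyte markers to 3220 and 4330 CPM in KO and 5730 and 4790 CPM in WT (0 of 12 positive, median -0.51). The part of these markers in the differences of the members was not tested. In edgeR 0 of 24680 genes were called (0%), with 472 at an unadjusted p under 0.05, while DESeq2 called 2 and limma-voom 0 with 412 unadjusted. Fitted to the 4 hippocampal libraries alone, the error of Slc17a6 was smaller (1.06 ± 0.21, edgeR adjusted p = 0.2), as was that of Synpo2 (0.71 ± 0.15, edgeR adjusted p = 0.24). That fit called 7 genes, none a member.

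In cerebellum 3 of 8 members were above 0 and 5 below (median -0.24, against -0.01 over all tested genes). Ramp3 was at -0.75 ± 0.37 (edgeR adjusted p = 1) and was the member whose genotypes did not overlap, lower in KO, as in 4.52% of tested genes. Another 4.78% did not overlap with KO higher, 9.3% in all. Tcf7l2 was at -0.68 ± 0.75, Slc17a6 at -0.61 ± 1.08, Plekhg1 at -0.38 ± 0.45 and Synpo2 at 0.34 ± 0.44. In edgeR 0 of 24680 genes were called (0%), with 785 at an unadjusted p under 0.05, while DESeq2 called 2 and limma-voom 0 with 786 unadjusted. Without KO 2 and WT 2 the values of Tcf7l2 and Slc17a6 turned to 0.09 and 0.58, and Ramp3 stayed at -0.73.

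The labels do not say that the cerebellar libraries are paired by number. They were taken as pairs from correlations in these same counts, which cannot decide whether numbers 1 and 3 are pairs. Fitted with this pairing, the errors were narrower. That fit called 104 genes (0.421%), 18 of them higher in KO, and no member. Ramp3 was at -0.73 ± 0.19 (edgeR adjusted p = 0.15), Plekhg1 at -0.38 ± 0.10 (edgeR adjusted p = 0.14) and Synpo2 at 0.35 ± 0.14 (edgeR adjusted p = 0.41). Tcf7l2 was at -0.40 ± 0.37 and Slc17a6 at -0.03 ± 0.49, nearer to 0 than without pairing. Both libraries numbered 2 were high in these genes.

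**Figure D3:**
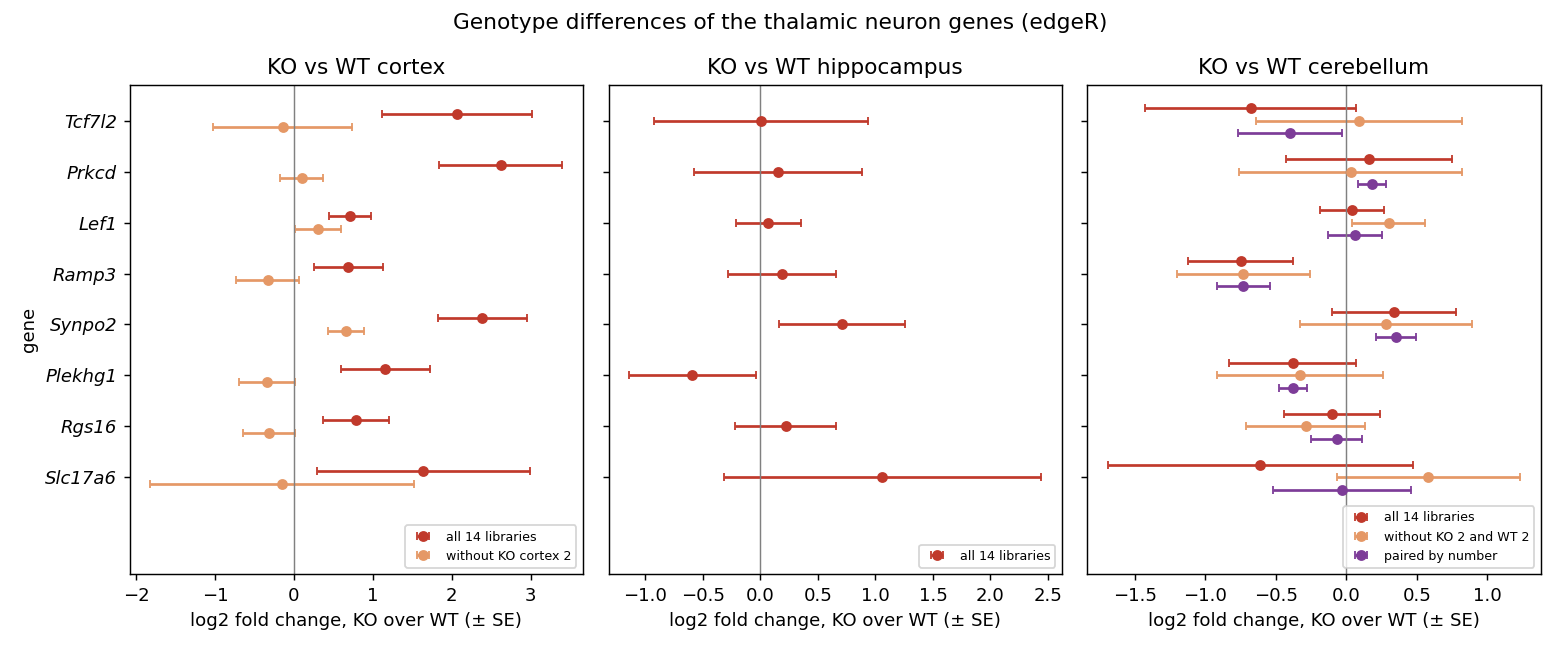
Log2 fold change, KO over WT, of 8 thalamic neuron genes (rows; Gbx2 is left out because most libraries had no read) in cortex, hippocampus and cerebellum (x axes, bars are ± SE, edgeR). Red points use all 14 libraries, and orange points leave out KO cortex 2 (left panel) or KO and WT cerebellum 2 (right panel). Purple points pair the cerebellar libraries by number, a pairing that the labels do not give. Without KO cortex 2 the cortical values of Tcf7l2, Prkcd and Slc17a6 move to within 0.15 of 0, and Synpo2 is above 0 in all 3 panels.

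Whether the effect of KO differs between regions was tested directly. Of 24680 genes edgeR called 0 (0%) for cortex minus hippocampus, for cortex minus cerebellum and for hippocampus minus cerebellum. At an unadjusted p under 0.05 there were 782, 1309 and 368 genes. For cortex minus cerebellum, the difference of log2 fold changes was 2.75 ± 1.20 for Tcf7l2, 2.45 ± 0.97 for Prkcd, 2.04 ± 0.71 for Synpo2 and 1.44 ± 0.57 for Ramp3, each with an edgeR adjusted p of 0.79. No member was called in any of the 3. Without KO cortex 2 the same differences were 0.55 ± 1.04 for Tcf7l2, -0.07 ± 0.33 for Prkcd, 0.32 ± 0.27 for Synpo2 and 0.42 ± 0.47 for Ramp3, each with an edgeR adjusted p of 1. With KO cortex 1 left out instead, KO cortex 2 alone stood for KO cortex, so the values rest on a single library known to be high. Synpo2, Prkcd, Plekhg1, Ramp3 and Rgs16 were then at 1.46 to 3.28 for cortex minus cerebellum. Prkcd, Plekhg1 and Synpo2 were at 2.40 to 3.30 for cortex minus hippocampus.

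Between regions, both genotypes weighted equally, few members were called while the apart libraries were in. Hippocampus over cortex had 12% of genes called (5.49% higher and 6.48% lower in hippocampus) and 2 of the 8 members, both lower in hippocampus. Ramp3 was at -1.83 ± 0.33 (edgeR adjusted p = 0.0027) and Rgs16 at -1.09 ± 0.31 (edgeR adjusted p = 0.036). The call of Ramp3 held when any of the 14 libraries was left out, and that of Rgs16 was lost in 9 of 14 such fits (edgeR adjusted p = 0.053 to 0.12). These were the fits without KO cortex 2, either WT cortical library, any of the 4 hippocampal libraries, KO cerebellum 1 or KO cerebellum 3. The value of Rgs16 was -0.56 without KO cortex 2. Slc17a6 was at -1.72 ± 0.97 and Tcf7l2 at -0.74 ± 0.65, neither called.

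Cerebellum over cortex had 48.4% of genes called (23% higher and 25.3% lower in cerebellum) and again 2 members, both lower in cerebellum. Lef1 was at -0.68 ± 0.18 (edgeR adjusted p = 0.0064) and was called in all 14 fits that left out a library. Ramp3 was at -0.77 ± 0.28 (edgeR adjusted p = 0.038), with a value of -0.27 (edgeR adjusted p = 0.38) without KO cortex 2, and its call was lost in 9 of 14 such fits. The others were those without any of the 3 KO cerebellar libraries, WT cerebellum 2 or 3, WT cortex 2 or either WT hippocampal library. Cerebellum over hippocampus had 47.3% of genes called (22.6% higher and 24.7% lower in cerebellum) and 2 members, both higher in cerebellum. Rgs16 was at 1.27 ± 0.29 (edgeR adjusted p = 0.0028), called in all 14 fits, and Ramp3 at 1.06 ± 0.31 (edgeR adjusted p = 0.012), whose call was lost without KO hippocampus 2 (0.95, edgeR adjusted p = 0.055).

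Without KO cortex 2, KO cerebellum 2 and WT cerebellum 2, more members were called, and for some the direction turned. These libraries were left out after the data were seen, and several of the members are themselves extreme in them. A single KO library is then left in cortex. The adjusted p-values of this fit therefore describe a chosen subset and are no independent test. Prkcd was then higher in hippocampus than in cortex (1.76 ± 0.16, edgeR adjusted p = 1.2e-05), in cerebellum than in cortex (2.51 ± 0.17, edgeR adjusted p = 9.3e-08) and in cerebellum than in hippocampus (0.76 ± 0.13, edgeR adjusted p = 3.5e-04). The first 2 of these differences were at 0.50 ± 0.52 and 1.18 ± 0.49 with all libraries, neither called. Slc17a6 was lower in hippocampus than in cortex (-0.84 ± 0.15, edgeR adjusted p = 0.0014) and lower in cerebellum than in cortex (-0.99 ± 0.15, edgeR adjusted p = 1.2e-04). Between cerebellum and hippocampus it turned to -0.15 (edgeR adjusted p = 0.38), against 1.64 ± 0.91 with all libraries. Plekhg1 was highest in hippocampus, at 1.02 ± 0.20 over cortex (edgeR adjusted p = 0.006), and cerebellum was at -0.90 ± 0.18 over hippocampus (edgeR adjusted p = 0.0018).

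In the same fit Rgs16 was highest in cerebellum, at 0.83 ± 0.18 over cortex (edgeR adjusted p = 0.002) and 1.38 ± 0.16 over hippocampus (edgeR adjusted p = 1e-05). Ramp3 was lowest in hippocampus, at -1.34 ± 0.25 over cortex (edgeR adjusted p = 0.002), with cerebellum at 1.15 ± 0.24 over hippocampus (edgeR adjusted p = 9.8e-04). Synpo2 was higher in cerebellum than in cortex (0.46 ± 0.15, edgeR adjusted p = 0.021), where the value with all libraries was -0.35 ± 0.35. Lef1 was lower in cerebellum than in cortex (-0.60 ± 0.15, edgeR adjusted p = 0.0047). Tcf7l2 was called in none of the 3 comparisons, at 0.35, 0.04 and -0.32. Of all genes, 21.2%, 51.8% and 57.3% were called in this fit for hippocampus over cortex, cerebellum over cortex and cerebellum over hippocampus.

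**Figure D4:**
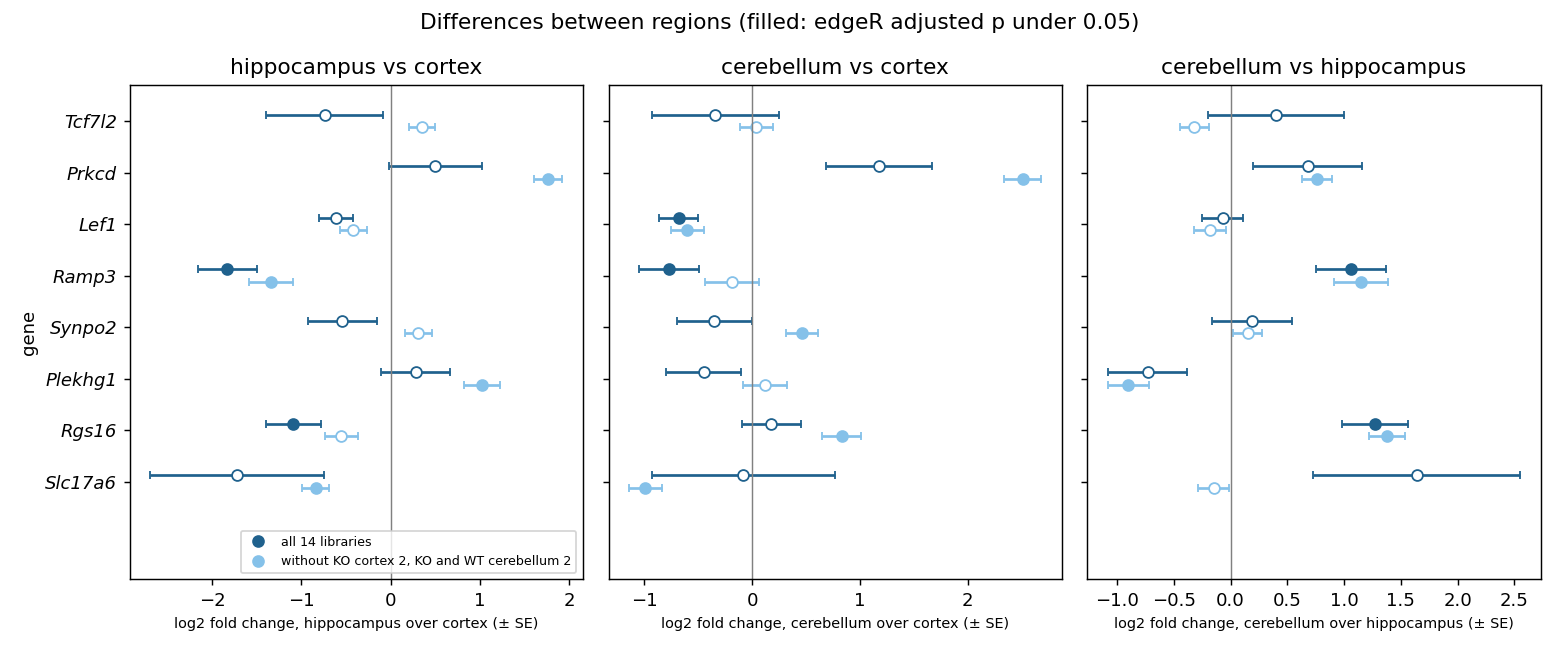
Log2 fold change between regions (x axes, top region named first, bars are ± SE, edgeR) of 8 thalamic neuron genes (rows). Dark points use all 14 libraries. Light points leave out KO cortex 2, KO cerebellum 2 and WT cerebellum 2, chosen after the data were seen. Filled points have an adjusted p under 0.05. Prkcd over cortex moves to 1.76 in hippocampus and 2.51 in cerebellum without the 3 libraries, and Slc17a6 between cerebellum and hippocampus lies at -0.15 without them, against 1.64 with all libraries.

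Of 22 other genes of the Wnt pathway, the setting in which Tcf7l2 and Lef1 act, none was called between genotypes. Nor was any of the 24680 genes tested by edgeR, in any region (0%). The median log2 fold change was 0.09 in cortex (16 of 22 above 0), -0.06 in hippocampus (8 of 22) and -0.09 in cerebellum (7 of 22), and 0.09 became -0.01 without KO cortex 2. Between regions, 1 was higher and 2 lower in hippocampus than in cortex, 5 higher and 9 lower in cerebellum than in cortex, and 6 higher and 7 lower in cerebellum than in hippocampus, against 12%, 48.4% and 47.3% of all tested genes called in either direction. Without KO cortex 2 these counts were 3 higher and 3 lower, 6 higher and 9 lower, and 9 higher and 8 lower, against 14.1%, 46% and 52.4% of all genes. Tcf7, another member of the TCF/LEF family, was lower in hippocampus than in cortex (-0.90 ± 0.22, edgeR adjusted p = 0.017). Lgr5, a receptor for R-spondins, was lower in hippocampus than in cortex (-1.09 ± 0.23, edgeR adjusted p = 0.0075) and higher in cerebellum than in cortex (2.13 ± 0.21, edgeR adjusted p = 3.8e-06).

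By edgeR none of the relatives of the other members was called between genotypes in any region, nor was any of 24680 genes (0%). Gbx1, the other gene of the GBX pair, was at 1.02 and 2.64 CPM in KO cortex and 0.958 and 0.609 CPM in WT cortex (log2 fold change 1.24 ± 0.44, edgeR adjusted p = 0.67, and 0.36 ± 0.43 without KO cortex 2). Synpo, the founding synaptopodin, was at 218 and 187 CPM in KO cortex and 227 and 240 CPM in WT cortex, with KO cortex 2 the lowest of the 4 where Synpo2 was the highest. Of 8 other protein kinase C genes, 6 were above 0 in cortex with a median of 0.04. Rgs4, an RGS gene abundant in cortex, was at 366 and 347 CPM in KO and 483 and 297 CPM in WT, and at 9.42, 33.8 and 9.34 CPM in KO cerebellum and 8.74, 50.6 and 9.50 CPM in WT cerebellum. Rgs4 was therefore high in both cerebellar libraries numbered 2. Rgs16 was lowest in WT cerebellum 2 (6.18 CPM), while KO cerebellum 2 (7.94 CPM) was hardly below KO cerebellum 1 (8.01 CPM).

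Correlations among the members changed when KO cortex 2 was left out. Over the 8 cortical and hippocampal libraries, the Pearson r of log2 CPM of each member with the mean of the other 8 was 0.59 (Plekhg1) to 0.97 (Tcf7l2 and Gbx2). Without KO cortex 2 the same r was -0.59 (Ramp3) to 0.63 (Synpo2). Over the 6 cerebellar libraries, r with Slc17a6 was 0.96 for Gbx2, 0.95 for Tcf7l2, 0.70 for Lef1 and 0.69 for Plekhg1, 0.22 for Synpo2, and -0.28 for Ramp3, -0.73 for Prkcd and -0.76 for Rgs16. These are descriptions of few libraries, which differ in depth and, in the first set, in region, and carry no test. Gbx2, which had few reads or none in most libraries, is in the means. Among 15976 other genes, those most like the mean of the members over the 8 libraries were Eef1g (0.996), Zfhx3, Hibadh, Stip1 and Baiap3 (0.99 each), Elfn1 (0.989), Kcna5 and Rcan3 (0.987 each). Without KO cortex 2 their r was 0.94 for Hibadh, 0.80 for Baiap3, 0.77 for Eef1g, 0.71 for Kcna5, 0.70 for Stip1, 0.69 for Zfhx3, 0.55 for Elfn1 and -0.49 for Rcan3. Baiap3 was at 52.8 CPM in KO cortex 2 and at 1.90 to 4.32 CPM in the other 7, and Eef1g, a translation elongation factor subunit, at 209 CPM against 122 to 129 CPM.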

How the data were processed

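Total RNA of 14 bulk libraries (7 KO, 7 WT) was sequenced by the authors. Per the submitters' processing notes, the tools were featureCounts 2.0.1, STAR 2.7.3a, cutadapt 2.10 and Trim Galore 0.6.4, and the build was mm10 (GRCm38.p6). The authors deposited whole-number counts per gene that were not normalized. The sources used here do not state the strand setting, the annotation release or how multimapping reads were treated. Symbols and exon lengths came from GENCODE M21 (48058 of 48440 identifiers matched). Promoter sequences came from RefSeq.

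Genes were kept by filterByExpr on 6 groups of region and genotype (24680), libraries were scaled by TMM, and edgeR 4.0.16 (R 4.3.3, robust quasi-likelihood test, 8 residual degrees of freedom, biological coefficient of variation 24.7%) was fitted to all 14 libraries. Adjusted p-values are Benjamini-Hochberg values over all genes tested, with a threshold of 0.05. Log2 CPM used a prior count of 2. DESeq2 1.42.0 and limma 3.58.1 (voom, with a correlation of 0.096 within a genotype and number where blocked), other scalings, no filter, single regions, pairing and leaving out libraries were alternatives. The fits were tested on simulated data. Depth was 20.1 to 38.8 M reads per library; without molecular identifiers, bounds cover counting error only.

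Members and lists were chosen with earlier results of these data known. The rule for named genes took all 9 members, up to 3 called genes of each other list or else its 2 most abundant, and the 8 genes most like the members with a mean log2 CPM of at least 1. The text names only some of them. Slc17a7, Rgs4, Synpo, Gbx1, Tcf7 and Lgr5 fall under it. Deviations of the cerebellar libraries from their group means correlated at 0.28, 0.75 and 0.35 between KO and WT of numbers 1, 2 and 3 over 18431 genes, all over 0.1, so the numbers, which come from the titles, were taken as pairs. KO 3 with WT 1 (0.45) and KO 1 with WT 3 (0.34) were as high, so how numbers 1 and 3 pair is unsettled. Deviations within a genotype cancel out, so a number 2 apart in both genotypes raises the correlations among numbers 1 and 3. The rule therefore cannot decide whether numbers 1 and 3 are pairs.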

Additional observations from a re-analysis of the deposited data

How the results depend on the processing

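Of 496 member values in the genotype comparisons under an alternative, 469 kept their direction and side of the threshold, 7 became called and 20 changed sign, none of them called. Of 504 in the region comparisons, 430 kept both, 26 lost a call, 28 gained one and 20 changed sign, 2 of them called. Where no cause is given, the cause was not tested.

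Genes called between KO and WT numbered 0 by edgeR in each region. In cortex and hippocampus, leaving out 1 library of a group leaves a single one, so counts of such fits rest on it. DESeq2 called 2 in cerebellum, 50 in cortex and 2 in hippocampus, the fit without a filter 1 in cortex, the fit to hippocampal libraries alone 7, and the cerebellar fit with the replicate block 104. Leaving out 1 library gave 0 to 1 in cerebellum and 0 to 2884 in cortex, where 2884 came without KO cortex 1 and 1 without WT cortex 3. For the KO effect in cortex minus hippocampus the range was 0 to 759, and for cortex minus cerebellum 0 to 1459, both highest without KO cortex 1. Hippocampus over cortex called 2956, and 5238 without the 3 apart libraries, an alternative chosen after seeing the data. Leaving out 1 library gave 1565 (KO hippocampus 1) to 4195 (KO cortex 1), with 1758 without WT hippocampus 2.

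The summed CPM of the members in KO cortex 2 over the mean of the other 3 was 5.24, or 4.69 on plain totals. Without a member it was 4.97 (Tcf7l2), 4.70 (Prkcd), 5.57 (Lef1), 5.43 (Ramp3), 5.02 (Synpo2), 5.84 (Plekhg1) and 5.37 (Rgs16). The ratio in WT cerebellum 2 was 2.00, or 1.92 on plain totals. Without a member it was 1.82 (Tcf7l2), 2.75 (Prkcd), 2.03 (Lef1), 2.04 (Ramp3), 2.12 (Synpo2), 2.13 (Plekhg1), 2.09 (Rgs16) and 1.29 (Slc17a6).

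Signs changed as follows. In KO over WT cerebellum, Slc17a6 was 0.08 by limma-voom and 0.58 without KO 2 and WT 2, and Tcf7l2 was 0.09 without them. Without the 3 apart libraries, Tcf7l2 was 0.35 and Synpo2 0.31 in hippocampus over cortex. In cerebellum over cortex Tcf7l2 was 0.04, Synpo2 0.46 (called) and Plekhg1 0.12, and in cerebellum over hippocampus Tcf7l2 was -0.32 and Slc17a6 -0.15. With 1 library left out, KO over WT cerebellum ranged over -1.06 to 0.43 for Tcf7l2, -1.81 to 1.78 for Slc17a6, -0.08 to 0.29 for Lef1 and -0.30 to 0.14 for Rgs16. KO over WT cortex ranged over -0.14 to 2.86 for Tcf7l2, -0.33 to 1.23 for Ramp3, -0.34 to 1.84 for Plekhg1, -0.31 to 1.36 for Rgs16 and -0.15 to 2.38 for Slc17a6, each lowest without KO cortex 2. KO over WT hippocampus ranged over -0.13 to 0.16 for Tcf7l2, 0 to 0.14 for Lef1, -0.12 to 0.46 for Ramp3 and -0.11 to 0.47 for Prkcd. Hippocampus over cortex ranged over -1.15 to 0.35 for Tcf7l2, -0.92 to 0.30 for Synpo2 and -0.07 to 1.02 for Plekhg1. Cerebellum over cortex ranged over -0.89 to 0.77 for Tcf7l2, -0.72 to 0.51 for Synpo2, -0.79 to 0.30 for Plekhg1, -0.10 to 0.73 for Rgs16 and -1.28 to 0.82 for Slc17a6. Cerebellum over hippocampus ranged over -0.15 to 0.59 for Tcf7l2.

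No paired analysis was possible for cortex and hippocampus because KO and WT share only the number 2 there. The replicate block changed no call of a member between genotypes. In the region comparisons, limma with a block on genotype and number called Lef1 in hippocampus over cortex (-0.61, limma adjusted p = 0.046), which limma-voom without the block did not (0.059), and no other call of a member differed between these fits. Unlike edgeR, both called Prkcd in cerebellum over cortex (1.52 with the block), and neither called Rgs16 in hippocampus over cortex (-1.02) or Ramp3 in cerebellum over cortex (-0.72 with the block). With 2 libraries per genotype in cortex and hippocampus, 1 library decides a mean, and Gbx2 had too few reads in most libraries for a fold change.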

Other observations

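Choroid plexus markers, which were high in KO cortex 2 together with the thalamic neuron genes, went their own way in other libraries. In hippocampus Ttr, the carrier of thyroid hormone made by the choroid plexus, was at 42.9 and 35.2 CPM in KO and 995 and 68.6 CPM in WT. The mean log2 deviation of the thalamic genes was 0.20 and 0.14 in KO and -0.07 and -0.12 in WT. Gbx2 is in this mean with at most 2 reads per library. By summed CPM the thalamic genes were at 136 and 151 in KO and 175 and 126 in WT, highest in WT hippocampus 2. In cerebellum Ttr was at 1020, 883 and 848 CPM in KO and 6.84, 562 and 1260 CPM in WT. WT cerebellum 1, with the lowest Ttr, had the highest Ramp3 of the region (8.91 CPM). These genes were chosen after their values were seen.

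Lamp5, a marker of upper cortical layers, was at 1.28, 35.8 and 1.22 CPM in KO cerebellum and 0.662, 50 and 0.981 CPM in WT cerebellum. Like Slc17a6, it was high in both libraries numbered 2. Tnnt1, a further gene of thalamic nuclei, was at 0.0442, 0.42 and 0.0453 CPM in KO cerebellum and 0.132, 1.30 and 0 CPM in WT cerebellum.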
